A study of Saccharomyces cerevisiae with 4 samples.

Results

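The genes of the yeast proteasome and of its transcriptional activator Rpn4 were followed through a short exposure to quinine. They were taken by name, as RPN1 to RPN14, RPT1 to RPT6, PRE1 to PRE10, PUP1 to PUP3, SCL1, UMP1 and ECM29, which gave 36 of the 5197 genes that the array measures with a single-gene probe set. The array table held 43 probe sets for them, of 7519 in all: 37 carried the open reading frame of a single gene and 6 only the gene's name. The 36 genes comprised 14 of the core particle, 10 of the base, 8 of the lid, 3 factors that assemble or tether the particle and the activator gene RPN4. Every one of the 36 passed the filter on dim probe sets and entered the test of 5128 genes.

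RNA came from the haploid laboratory strain BY4741 of Saccharomyces cerevisiae, a mating type a strain with auxotrophic deletions that all samples share. Mid-exponential cells grown in MM4 medium were moved to fresh medium for 15 min, with quinine at 1 g/L (2 arrays) or without the drug (2 arrays). The quinine was added in ethanol, at 0.7% by volume, and the sources used here do not say if ethanol was in the control medium too, so quinine and solvent cannot be told apart. Each of the 4 Affymetrix arrays carried labelled RNA of 1 sample, and nothing in the labels makes the replicates separate cultures, so p values measure only the scatter among these arrays, which could be technical. The comparison addressed the early transcriptional response to this antimalarial alkaloid. All 7 a-cell genes checked were called Present on the 4 arrays. Of the 4 genes of the opposite mating type checked, STE3 and SAG1 were tested and also called Present, and the others were not analysed here. STE3 had signals between 27.4 and 47.6 and SAG1 signals between 527 and 656. The median signal over all probe sets was 636 and 596 on the quinine arrays and 621 and 626 on the control arrays.

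The proteasome degrades proteins marked with ubiquitin. Its core particle is a barrel of alpha rings, which gate the entrance, and beta rings, which hold the proteolytic sites inside. The regulatory particle that caps it has a base, with a ring of ATPases that unfold the substrate, and a lid, which helps to remove the ubiquitin chain. In yeast the genes of these parts are known to be activated together by Rpn4, a short-lived protein that the proteasome itself degrades, so that loss of proteasome activity normally raises Rpn4 and with it the supply of subunits.

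With quinine, the proteasome genes as a group stayed close to their control signals. Of the 36 genes, 21 had a higher and 15 a lower mean log2 signal with quinine, and the median log2 fold change (quinine over control) was 0.042, against -0.025 over all 5128 genes tested. The largest increase was that of PRE8 (0.62) and the largest decrease that of PUP2 (-0.52), both genes of the alpha ring. No member passed the test: the lowest adjusted p in limma, with Benjamini-Hochberg adjustment over all genes, was 0.187, and 1 gene of the 5128 (0.0195%) passed. An unadjusted p under 0.05 in limma was reached by 3 members, PRE8, PUP2 and ECM29 (8.33%), against 18.4% of all genes. In these bulk samples of a single strain, a change in every cell and a change in only a part of the cells cannot be told apart. The quinine signals were both above the 2 control signals in 6 members (16.7%), against 19.8% of all genes, and below both in 8 (22.2%), against 29.9% of all genes. In the other 22 the groups overlapped.

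The members' changes were small beside those of all genes tested. Most members had signals above the median signal of the arrays, and no comparison with genes of like signal was made. The median size of the log2 fold change, whatever its sign, was 0.144 in the members and 0.218 over all genes. A size over 0.5 was reached by 2 of the 36 members (5.56%) and by 17.6% of all genes, and a size over 1 by 0 members and 3.04% of all genes. By size of change, 11 of the 36 members lay above the median gene. With 2 arrays a group the precision was limited: the 95% interval of a member's log2 fold change reached a median of 0.466 to either side, a factor of 1.38. In 35 of the 36 members the whole interval lay between -1 and 1 on the log2 scale, which also held for 4072 of the 5128 genes tested. The exception among the members was PRE8, with an interval from 0.09 to 1.15.

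**Figure D1:**
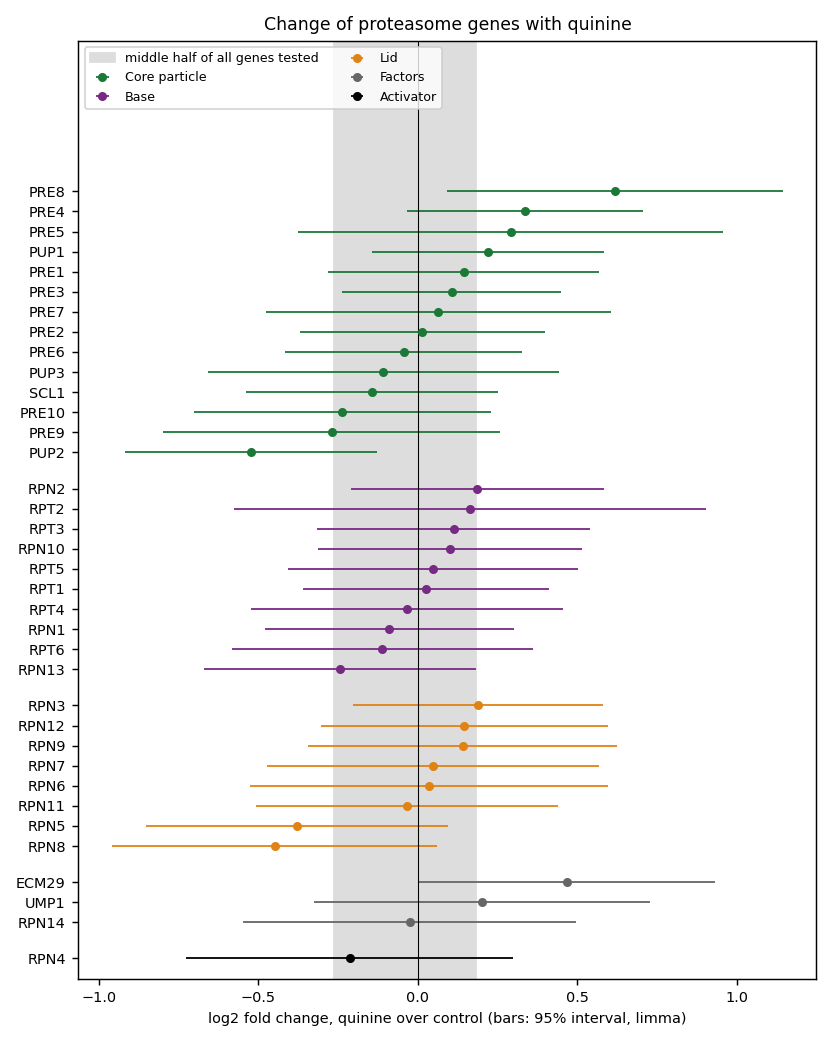
Log2 fold change (quinine over control) of each of the 36 proteasome genes on the horizontal axis, with its 95% interval from limma, grouped by part of the particle and sorted within it; the grey band runs from the lower to the upper quartile of all genes tested, from -0.26 to 0.18. PRE8 at 0.62 and PUP2 at -0.52 stand at the ends, the base genes lie between -0.24 and 0.19, and the intervals include 0 except those of PRE8, PUP2 and ECM29.

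**Figure D2:**
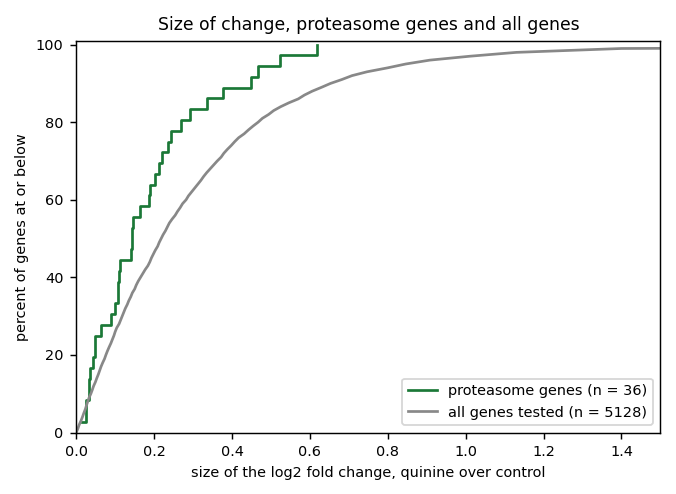
Percent of genes (vertical axis) whose log2 fold change has at most the size on the horizontal axis, for the 36 proteasome genes and all 5128 genes tested. The curve of the proteasome genes lies mostly to the left of that of all genes, with medians of 0.144 and 0.218.

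RPN4 was called Present on all 4 arrays. Its signal was 1354 and 1102 with quinine, against 1252 and 1601 in controls. The 2 quinine values lay around the lower control value and below the higher one, so the groups overlapped. The log2 fold change was -0.21 ± 0.21 (SE), with a 95% interval from -0.73 to 0.30, and limma gave it an adjusted p of 0.641. In the authors' deposited table the fold of RPN4 was -1.16 with bounds of -0.88 and -1.52, where a negative fold means lower with quinine. No increase of the activator gene was measured, and the upper end of its interval was a 1.23-fold one.

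The 4 activators known to raise RPN4 transcription were measured as well, and 0 of the 4 passed with an adjusted or an unadjusted p under 0.05. The log2 fold changes of PDR1 and PDR3, the regulators of drug resistance, were 0.04 and 0.08. YAP1, the activator of oxidative stress genes, was at 0.22, and HSF1, the heat shock activator, at -0.25. HSF1 was at 0.076 without quinine replicate 2. Rpn4 protein is degraded after ubiquitin is attached by the ligase Ubr2 with its partner Mub1 and the conjugating enzyme Rad6. UBR2 had signals of 264 and 355 with quinine, against 218 and 204 in controls, both quinine values being higher, a log2 fold change of 0.54 (adjusted p = 0.242 in limma). RAD6 had the opposite order, with signals of 1130 and 895 with quinine, against 1277 and 1455 in controls (adjusted p = 0.304 in limma). MUB1, with a log2 fold change of 0.03, had overlapping groups.

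The 14 core particle genes had a median log2 fold change of 0.040, with 8 higher and 6 lower, and held both ends of the whole set. Of the 7 alpha ring genes 5 were lower with quinine and the median was -0.14, while of the 7 beta ring genes 6 were higher and the median was 0.11. Below both controls on each quinine array were 4 alpha ring genes and 0 beta ring genes, and above them 1 alpha ring gene and 2 beta ring genes, while of all genes 29.9% lay below and 19.8% above. No test was made between the rings.

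In the alpha ring, PRE8 had signals of 3505 and 3904 with quinine, against 2915 and 1992 in controls. Both quinine values were higher, but the 2 control values differed by 0.55 on the log2 scale, nearly as much as the change. The log2 fold change of PRE8 was 0.62 ± 0.21 (SE), a fold of 1.54, with an adjusted p of 0.221 in limma. Leaving out control replicate 2 gave 0.34, and leaving out control replicate 1 gave 0.89. PUP2 had signals of 573 and 550 with quinine, against 831 and 783 in controls. Its groups were well apart and its replicates close together. The log2 fold change of PUP2 was -0.52 ± 0.16 (SE), with an adjusted p of 0.187 in limma. It stayed between -0.57 and -0.48 when 1 array was left out.

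PUP2 was the 1 member that the authors' deposited table marks, with a fold of -1.43 and bounds of -1.31 and -1.58, while that table marks 12.7% of all the genes tested. A further 3 alpha ring genes had both quinine values below both control values, by less. PRE10 was at 1711 and 1327 with quinine, against 1815 and 1734 in controls. SCL1 was at 1504 and 1423 with quinine, against 1667 and 1566 in controls. PRE6 was at 1944 and 1904 with quinine, against 1994 and 1971 in controls, a log2 fold change of only -0.04. PRE9, which encodes the alpha ring subunit that cells can do without, was at 2053 and 1441 with quinine, against 2157 and 1994 in controls, and its groups overlapped. PRE5, at 2615 and 2219 with quinine, against 2547 and 1520 in controls, overlapped too, with a control gap of 0.74. Its log2 fold change of 0.29 came to -0.08 without control replicate 2.

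In the beta ring, the genes of the 3 catalytic subunits had higher means, none past the test. PUP1, for the trypsin-like site, was at 2991 and 2988 with quinine, against 2725 and 2415 in controls, with a log2 fold change of 0.22. PRE3, for the site that cuts after acidic residues, was at 3607 and 3490 with quinine, against 3495 and 3105 in controls, and PRE2, for the chymotrypsin-like site, at 4808 and 3951 with quinine, against 4631 and 4018 in controls. The groups were apart for PUP1 and overlapped for PRE3 and PRE2. PRE2, at 0.015, came to -0.127 without quinine replicate 1 and -0.087 without control replicate 2. PRE4, a subunit without a catalytic site, had the largest beta ring value. Its signal was 3159 and 2917 with quinine, against 2539 and 2278 in controls, with a log2 fold change of 0.34 ± 0.15 (SE), for which limma gave an adjusted p of 0.307. PRE1, PRE7 and PUP3, the other structural beta subunits, had log2 fold changes of 0.14, 0.06 and -0.11, with overlapping groups. As with PRE2, the sign of each turned when 1 array was left out.

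Of core, base and lid, the base had the smallest spread. Its 10 genes had log2 fold changes between -0.24 and 0.19, with a median of 0.037, 6 higher and 4 lower, and an SD across genes of 0.136, against 0.289 in the core and 0.243 in the lid. Within the core, the SD was 0.383 in the alpha ring and 0.143 in the beta ring, which was close to that of the base. No test was made between these spreads. The 6 ATPase genes RPT1 to RPT6 all had overlapping groups, with values between -0.11 (RPT6) and 0.16 (RPT2). RPT2 had the widest interval of any member, from -0.58 to 0.91, since its signal was 821 and 520 with quinine, against 715 and 475 in controls. The signs of RPT1, RPT2, RPT4, RPT5 and RPT6 turned when 1 array was left out, and only RPT3 kept its sign. RPT2 came to -0.13 when control replicate 2 was left out and to -0.16 for quinine replicate 1. RPT6 came to 0.026 for control replicate 1 and 0.089 for quinine replicate 2.

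Among the other base genes, RPN2, a large scaffold subunit, was at 2882 and 2542 with quinine, against 2533 and 2230 in controls, with the lower quinine value just above the higher control value. RPN1, the other scaffold subunit, was at 1745 and 1609 with quinine, against 1814 and 1749 in controls, so its groups were barely apart in the other direction. Of the ubiquitin receptors, RPN13 was at 1668 and 1464 with quinine, against 1980 and 1729 in controls, the lowest value of the base at -0.24, and RPN10 was at 0.10 with overlapping groups. The adjusted p values of the base genes lay between 0.511 and 0.952 in limma.

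The 8 lid genes had a median log2 fold change of 0.042, 5 higher and 3 lower, with 2 genes well below the rest. RPN8, which pairs with the deubiquitinase Rpn11, was at 1455 and 1083 with quinine, against 1822 and 1610 in controls. Its log2 fold change was -0.45 ± 0.21 (SE), with an adjusted p of 0.318 in limma. It lay between -0.66 without quinine replicate 1 and -0.23 without quinine replicate 2. RPN5, another structural lid subunit, was at 1533 and 1177 with quinine, against 1778 and 1713 in controls, with a log2 fold change of -0.38 ± 0.19 (SE), for which the adjusted p in limma was 0.359, and -0.57 and -0.19 without quinine replicates 1 and 2. In both genes the 2 quinine values lay below the 2 control values, and the lower of them was that of quinine replicate 2. RPN11, the deubiquitinase gene itself, was at -0.03 with overlapping groups, and at 0.103 without quinine replicate 2. RPN3, at 1769 and 1786 with quinine, against 1626 and 1494 in controls, was the 1 lid gene with both quinine values above both control values, by a log2 fold change of 0.19. RPN12, RPN9, RPN7 and RPN6 lay between 0.04 and 0.15 with overlapping groups. Without quinine replicate 1 these came, in that order, to -0.028, -0.041, -0.199 and -0.182.

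Of the 3 factors, ECM29, which tethers the core to the regulatory particle, had the third largest size of change among the members. Its signal was 427 and 403 with quinine, against 341 and 263 in controls, and both quinine values were higher. The log2 fold change of ECM29 was 0.47 ± 0.19 (SE), a fold of 1.38, with an adjusted p of 0.270 in limma. It was 0.28 and 0.65 without control replicates 2 and 1. UMP1, the maturation factor of the core, was at 1208 and 951 with quinine, against 1050 and 827 in controls, with overlapping groups and a log2 fold change of 0.20, which was 0.028 without quinine replicate 1. RPN14, a chaperone of base assembly, had a Present call on both quinine arrays and on 1 control array, and its log2 fold change was -0.03, with signals of 483 and 343 with quinine, against 403 and 426 in controls. Its sign turned to 0.0056 after median centring and to 0.016 after quantile normalization.

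**Figure D3:**
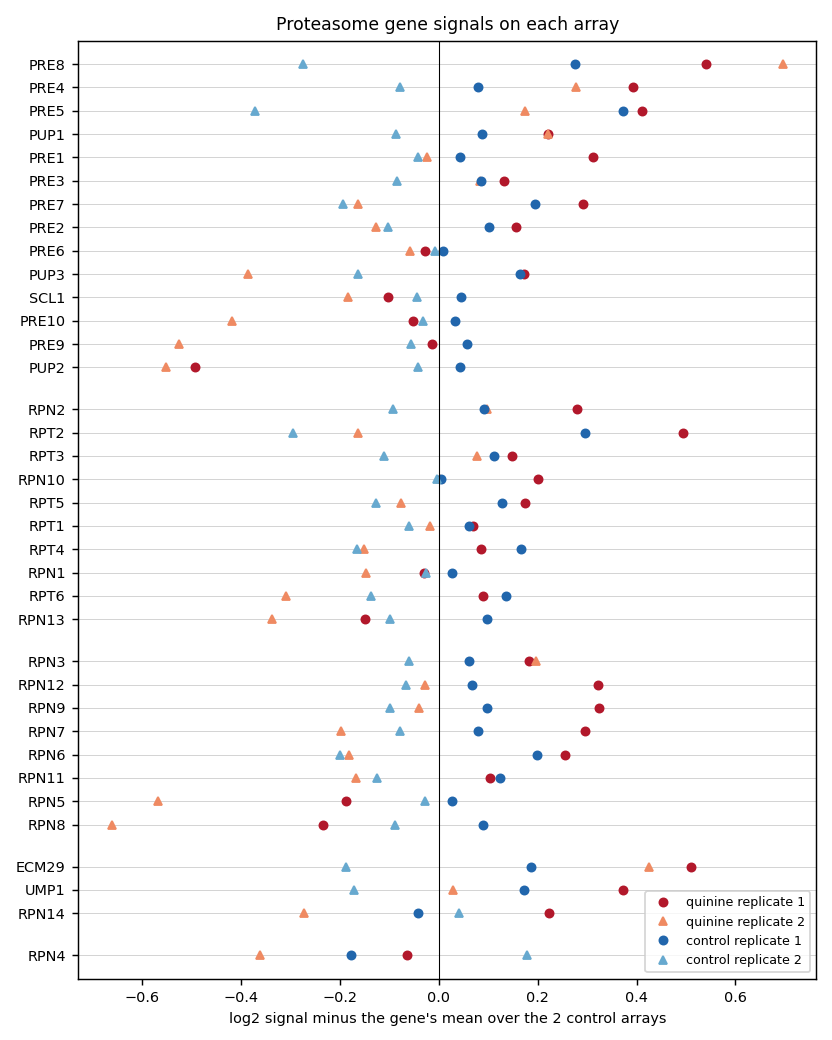
Log2 signal of each proteasome gene on each array, less the mean of its 2 control arrays (horizontal axis), with quinine in red and control in blue, replicate 1 as circles and replicate 2 as triangles. In most rows the circles lie to the right of the triangles of the same colour; PRE8, PRE4, PUP1, RPN2, RPN3 and ECM29 have both quinine points right of both control points.

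As given above, the groups overlapped in 22 of the 36 members (61.1%), against 50.4% of all genes. With 2 arrays a group, overlap means that the mean gap between arrays of a group is larger than the change between group means. That gap is therefore no further result beside the overlap. The groups overlapped in 7 of 14 core genes, 7 of 10 base genes and 5 of 8 lid genes. The signal on quinine replicate 1 was above that on quinine replicate 2 in 34 of the 36 members (94.4%), against 68.7% of all genes, and that on control replicate 1 was above control replicate 2 in 34 of 36 too (94.4%), against 56.1% of all genes. All 32 genes of core, base and lid were higher on control replicate 1. The median log2 gap was 0.26 between the quinine arrays and 0.18 between the controls, against 0.12 and 0.04 over all genes. RPN4 did not share this in controls, where its replicate 1 was the lower by 0.35. After quantile normalization the members were higher on replicate 1 in 21 of 36 with quinine and in 23 of 36 in controls. Of all 5128 genes, 2374 were so with quinine and 2355 in controls, a lower share in each group. The part of array scale in this tilt was not otherwise tested.

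Relative to the control mean, the median member lay at 0.173 on quinine replicate 1 and -0.137 on quinine replicate 2, against 0.088 on control replicate 1 and -0.088 on control replicate 2. With 1 array left out the sign turned in 16 of the 36 members and was kept in 20. No such share is given for all genes, so this is not shown to be particular to the members. The direction of the list's median rested on single arrays too. It was -0.14 without quinine replicate 1 and -0.065 without control replicate 2, but 0.17 without quinine replicate 2 and 0.13 without control replicate 1. The lid behaved likewise, with -0.18 and 0.22 without quinine replicates 1 and 2 and 0.17 and -0.094 without control replicates 1 and 2. Without quinine replicates 1 and 2 and control replicates 1 and 2 in turn, the core was at -0.093, 0.16, 0.15 and -0.084, and the base at -0.11, 0.12, 0.12 and -0.097.

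**Figure D4:**
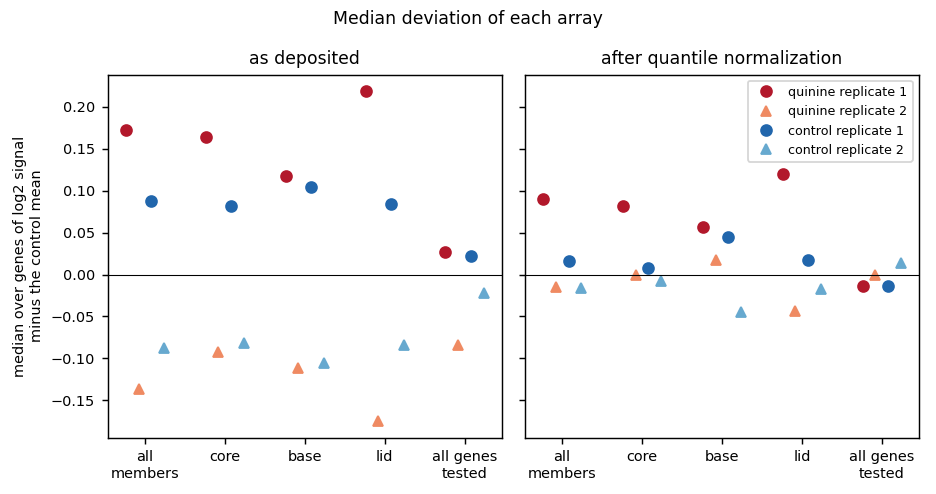
Median over genes of the log2 signal less the control mean (vertical axis) for each array, as deposited on the left and after quantile normalization on the right, in all members, core, base, lid and all genes tested. As deposited, both replicate 1 arrays lie above both replicate 2 arrays for the members, from 0.173 to -0.137, and quantile normalization narrows this.

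Further probe sets under the same gene name were at hand for 3 members. PRE3 has an intron and a probe set for each exon. The first exon's set was at 477 and 833 with quinine, against 559 and 599 in controls, with a log2 fold change of 0.12, and the second exon's set, used above, was at 0.11. The 2 sets thus gave nearly the same change, though the first exon's values on the quinine arrays were far apart and lay on both sides of the controls. RPT5 and ECM29 had further probe sets, 2 and 4, that carry the gene's name but a chromosome accession in place of an open reading frame. The sources used here do not state which part or strand these detect. For RPT5 they had log2 fold changes of 0.07 and -0.03, beside 0.05 for the open reading frame. For ECM29 they had 0.46, 0.67, 0.13 and 0.37, beside 0.47, and all 4 had overlapping groups.

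These 6 sets differed from the open reading frame sets in how the replicates lay. In 6 of 6 the signal on replicate 2 was the higher in both groups, which held for 1 of the 37 sets with an open reading frame. The set gHL01_3 of ECM29, for example, was at 244 and 556 with quinine, against 187 and 287 in controls. The same order in both groups was found in 78.8% of the 373 probe sets of the array known by gene text only, and in 23.0% of the 5305 with a single open reading frame. The ECM29 sets gHL01_2 and gHL01_5 were each called Present on 1 array of each group. With the mean of all sets that carry the gene's name, chosen after seeing the data, ECM29 was at 0.42 and RPT5 at 0.031. These means mix sets that are not shown to detect the same transcript.

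**Figure D5:**
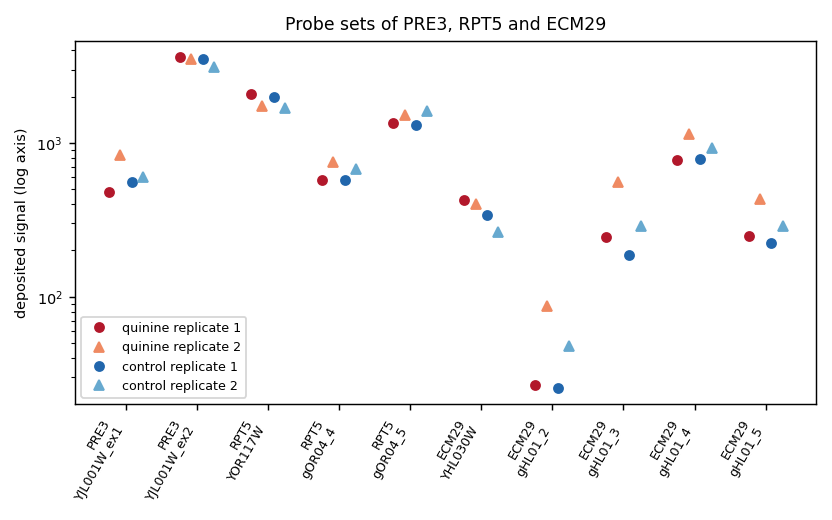
Deposited signal (vertical log axis) of every probe set of PRE3, RPT5 and ECM29 on each array, with quinine in red and control in blue, replicate 1 as circles and replicate 2 as triangles; the label gives the gene and the array's feature. In the 6 sets with a feature name starting with g, the triangles lie above the circles of the same colour, and in the sets of RPT5 and ECM29 with an open reading frame, below them.

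The members lay on 13 chromosomes by the reference gene table of assembly R64, and 0 of them overlapped another gene of that table. PRE4 and RPN12, with RET2 between them, were at 0.34 and 0.15, and RPT4 and RPN8, with GCD1 between them, were at -0.03 and -0.45. No coordinates are given, since the array's genome build is not named in the sources used here.

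Of the listed genes that work with the proteasome or activate RPN4 transcription, 0 passed with the adjusted p in limma. Of the 50 tested, 8 had an unadjusted p under 0.05 (16.0%, against 18.4% of all genes). The 4 activators of RPN4 given above are among the 50. In the list of other assembly chaperones and associated proteins, 7 of 9 had a higher mean, and the median log2 fold change was 0.23. Of these, 4 had both quinine values above both control values (44.4%, against 19.8% of all genes) and 1 had both below (11.1%, against 29.9%). NAS2, a chaperone of base assembly, was at 339 and 314 with quinine, against 219 and 257 in controls, with an adjusted p of 0.242 in limma. IRC25, a chaperone of core assembly, was at 427 and 388 with quinine, against 526 and 527 in controls, with an adjusted p of 0.288 in limma. NAS2 was the 1 of the 9 with an unadjusted p under 0.05 (11.1%, against 18.4% of all genes). SEM1, at a log2 fold change of -0.16 with overlapping groups, was counted in this list and not with the lid.

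Among 21 genes of ubiquitin activation and conjugation, 13 were higher and 8 lower, with a median of 0.08. An unadjusted p under 0.05 was reached by 6 of the 21 (28.6%, against 18.4% of all genes), 4 of them higher and 2 lower. UFD4, a ubiquitin ligase that binds the proteasome, was at 1903 and 1616 with quinine, against 1319 and 1157 in controls, a log2 fold change of 0.51 (adjusted p = 0.231 in limma). The 10 genes that deliver substrates had a median of 0.10, with 0 below an unadjusted p of 0.05. UBX2, which recruits the segregase Cdc48 to the endoplasmic reticulum, and the shuttle gene DDI1 had the lowest p values there, with log2 fold changes of 0.39 and 0.40. CDC48 itself was at -0.12.

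Ubiquitin genes and deubiquitinases held the lowest adjusted p of all these lists. Of 8 listed, 6 were tested, 3 higher and 3 lower, and RPL40A and RPL40B were not analysed here. UBP3, a deubiquitinase known for its part in secretion and in the turnover of ribosomes, was at 68.3 and 79.0 with quinine, against 152 and 148 in controls. Its 2 quinine values were close to each other and far below both control values. The log2 fold change of UBP3 was -1.03 ± 0.18 (SE), with a 95% interval from -1.48 to -0.58, and its adjusted p in limma was 0.0803. The signals of UBP3 were far below the median signal of each array. With a pseudocount of 50 its log2 fold change was -0.7. The polyubiquitin gene UBI4 was at 0.57 with a wide interval, from -0.47 to 1.62, and DOA4, which recovers ubiquitin from substrates, was at 0.26.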

How the data were processed

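Affymetrix Yeast Genome S98 arrays of 4 samples were used, grouped by the labels. The deposited values were linear signal intensities, 1 per probe set and array, and MAS5 is the tool listed in the submitters' processing notes, its role and version unstated. The scaling of the arrays is not stated there either. The authors deposited group means as signal intensity, their standard errors and signed folds with bounds as scores, and the share of arrays called Present as a percent.

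Probe sets were named through their open reading frame in the R64 gene table: 5305 of 7519 named 1 gene, and 480 named several, 373 gave gene text only, 226 an unmatched frame, 1133 another feature and 2 names that disagreed. Those Present on at least 2 arrays (5234) were kept, the brightest per gene, 5128 genes in all. Log2 signals without a pseudocount were compared by limma (version 3.58.1, R 4.3.3), using lmFit and trended eBayes. The residual degrees of freedom were 2 and the prior ones 3.89, and p values were adjusted by Benjamini-Hochberg, with a threshold of 0.05. The fit was tested on simulated data with added changes far larger than any member's and independent noise on each array. That run does not bear on the detection of changes of the members' size. Folds are back-transformed log2 fold changes. Lists are described by counts and medians, with no list test. Members and lists were chosen with earlier results of these data known. Genes were named by rule: RPN4, UMP1, RPN14, ECM29, members with an unadjusted p under 0.05, the 2 highest and 2 lowest of core, base and lid, and the 2 lowest p of each list of partner genes; other names were added after their values were seen. A planned count of a promoter motif was not run, and no sequence is printed. Alternatives were other scales, filters, variance models, a pseudocount, probe set choices, the replicate number as a block and each array left out.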

Additional observations from a re-analysis of the deposited data

How the results depend on the processing

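The count of members that passed was 0 under each alternative run except the replicate block, and each array left out also gave 0. The count over all genes was 1, and it was 0 after median centring, after quantile normalization and without a variance trend, 2 with a pseudocount of 50, and between 0 and 122 with 1 array left out (122 without control replicate 1, 28 without control replicate 2, 0 without either quinine array). With the replicate number as a block, 1461 of the 5128 genes passed and 6 of the 36 members did, a smaller share than of all genes. The members were PRE8, PUP2, RPN8, ECM29, PRE4 and RPN5, with adjusted p values in limma between 1.41e-05 and 0.0449. NAS2, UFD4, UBR2 and UBP3 passed too. That fit has 1 residual degree of freedom and an infinite prior, so it rests on a spread shared by all genes. The replicate 1 minus replicate 2 differences of the 2 groups correlated with r = 0.616 across genes, which are not independent replicates, but 2 pairs that share only a number do not show a pairing, and the labels state none. The medians kept within the spread of array medians in every setting but array left out, where they ranged from -0.14 to 0.17 for all members, from -0.093 to 0.16 for the core, from -0.11 to 0.12 for the base and from -0.18 to 0.22 for the lid. RPN4 ranged from -0.39 to -0.035. Across all 36 members, 16 changed sign when 1 array was left out, with no share of all genes given beside it. Among the genes named by rule, signs turned for RPN14 (0.0056 after median centring, 0.016 after quantile normalization, -0.27 to 0.22 with 1 array left out), RPT6 (-0.31 to 0.089), RPT2 (-0.16 to 0.49), RPN12 (-0.028 to 0.32) and HSF1 (-0.57 to 0.076). The causes were not tested. Taking the values from per-array columns of the fold table was not run, since that table holds group means. The number of arrays limits what could be detected: the median 95% interval of a member spans a factor of 1.38 to either side.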
